A study of Mus musculus with 24 samples.

Results

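The expression of 10 imprinted growth genes was followed in retroperitoneal white adipose tissue of mouse offspring. They were the paternally expressed Igf2, Dlk1, Peg3, Plagl1 and Ndn, the maternally expressed H19, Meg3, Cdkn1c and Igf2r, and Grb10, which most tissues express from the maternal copy. These 10 genes were chosen by name, as candidate carriers of an effect of the mother's diet, with earlier results of these data known. All 10 were found among the 56895 entries of the deposited tables.

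Whole tissue of 24 mice was profiled by sequencing of polyadenylated RNA, with 3 mice in each of 8 groups. The labels give the genotype of all mice as C57BL/6J, with no other allele named, and the study's methods give the parents as C57BL/6JRJ mice from Janvier Labs. CTRL mothers received an AIN-93G diet with vitamin D3 at 1.0 IU/g for 8 weeks, and VDD (vitamin D deficient) mothers received the same diet at 0.0 IU/g. The paper's discussion places the vitamin D-free diet at 8 weeks or more before mating and in gestation. Every mother received the control diet from delivery until weaning. At 6 weeks of age the male and female offspring were put for 8 weeks on a low-fat diet (LF, AIN-93M) or on a high-fat diet (HF) with 45 percent of its energy from fat, and tissue was taken after an overnight fast. No source used here gives the litter of a mouse, so mice of a group may share a mother, and p-values measure the spread between mice.

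Imprinted genes are transcribed mainly from the copy inherited from 1 parent, because DNA methylation set in the egg or the sperm marks the copies differently. Many of them act on fetal growth: Igf2 is a growth factor, Igf2r clears it, and H19 shares its enhancers. Dlk1 is an inhibitor of adipocyte formation, Meg3 a long noncoding RNA of the same cluster, Cdkn1c a cell cycle inhibitor, Grb10 an adaptor that dampens insulin and insulin-like growth factor signalling, Plagl1 a zinc finger factor, Peg3 a zinc finger protein of the placenta, brain and fat, and Ndn (necdin) a MAGE family protein that restrains cell division. In inbred mice the parental copies have the same sequence, so the reads give the sum of both copies and carry no information on imprinting itself.

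The libraries held 13346779 to 18484346 reads on genes. Levels below are scaled reads: the recovered read number of a library divided by its size factor (median of ratios over all 24 libraries). Fat cell genes were abundant in every library, with sums over 8 white adipocyte markers of 328006 to 905273 scaled reads. Nevertheless, 9 libraries exceeded 10000 scaled reads summed over 8 skeletal muscle markers, 3 female HF libraries exceeded 10000 over 8 adrenal cortex markers, and 1 VDD LF female reached 8374 over 8 kidney markers. For 6 libraries the column name includes "renal", and what it stands for was not stated. In bulk tissue, fewer cells of a type and less RNA per cell cannot be told apart.

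The members lie on 5 chromosomes (mm10, GENCODE M21 positions). Igf2 (chr7:142650766-142666816), H19 (chr7:142575529-142578143) and Cdkn1c (chr7:143458339-143461050) lie on the minus strand of distal chromosome 7, with 72.6 kb between Igf2 and H19. Peg3 (chr7:6703892-6730431, minus strand) and Ndn (chr7:62346569-62350262, plus strand) lie elsewhere on chromosome 7. Dlk1 (chr12:109452823-109463336) and Meg3 (chr12:109541001-109571726) lie 77.7 kb apart on the plus strand of chromosome 12. Grb10 lies at chr11:11930508-12038683 (minus strand), Plagl1 at chr10:13060504-13131694 (plus strand) and Igf2r at chr17:12682406-12769664 (minus strand). Igf2r overlaps the antisense gene Airn (99.1 to 197 scaled reads), and Igf2 overlaps Igf2os (0 to 5.88 scaled reads). The kit was stranded, but no source used here gives the strand setting of the counting.

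Of the 10 genes, Igf2 and Dlk1 were near the detection limit. H19 was near it in some libraries, with lowest values of 1.28 scaled reads in VDD LF males and 3.74 in CTRL LF males. The others were well expressed. Per kilobase of exon, the median scaled reads over the 24 libraries were 520 for Peg3, 339 for Cdkn1c, 225 for Grb10, 166 for Igf2r, 138 for Plagl1, 97.3 for Ndn, 43.2 for H19 and 17.5 for Meg3. Dlk1 had 1.05 and Igf2 0.849 per kilobase. The ranges of neighbours in this order overlapped, except that every library of Meg3 (8.71 to 34.5 per kilobase) lay above every library of Dlk1 (0.175 to 3.39 per kilobase). In unscaled reads, Igf2 was covered by 1 to 12 reads and Dlk1 by 1 to 20 reads per library. Igf2 did not reach 10 normalized reads in 3 libraries of any comparison and was not tested, and Dlk1 was tested only in females and over all 24 libraries.

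**Figure D1:**
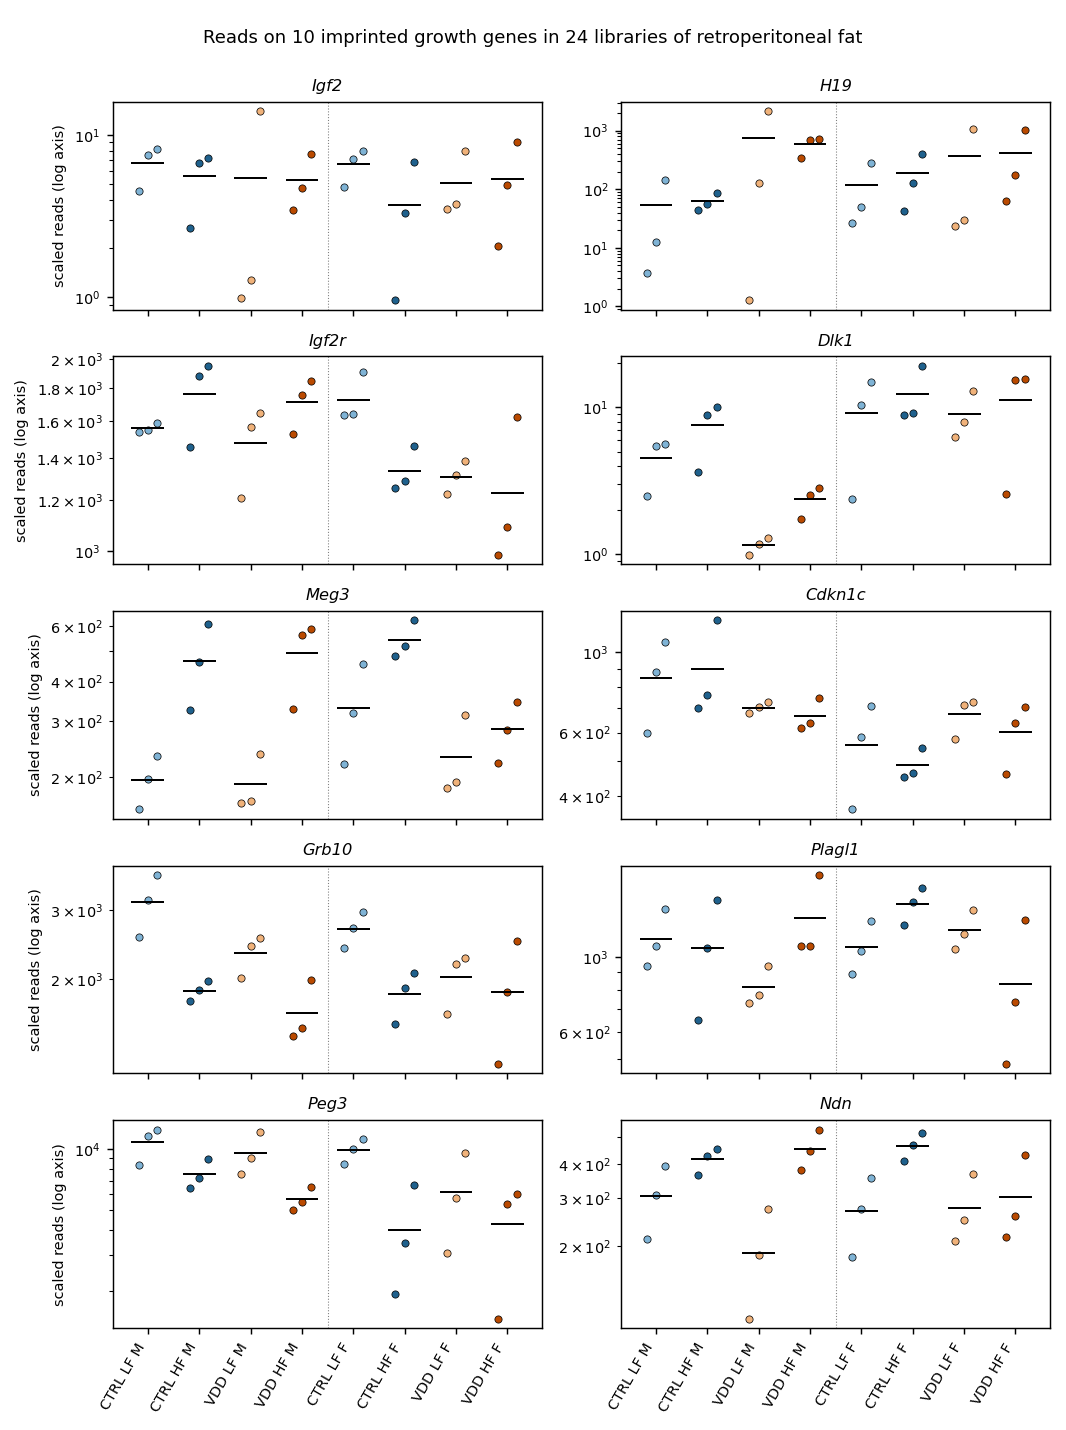
Scaled reads (log axis) of the 10 genes by group, with 1 point per mouse, a bar for the group mean of 3 mice and a dotted line between males (M) and females (F). Meg3 and Ndn lay higher and Grb10 and Peg3 lower in most HF groups (dark points) than in the LF groups (pale points), while H19 spread from 1.28 to 2134 scaled reads.

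The first comparison asked what the HF diet changed, over 12 HF and 12 LF libraries, with the 8 group means fitted in limma and the Benjamini-Hochberg adjusted p taken over 18399 genes. Meg3 and Ndn rose and were called (adjusted p below 0.01 and a fold above 1.5 or below 0.66), and Grb10 and Peg3 were lower at an adjusted p below 0.05 without being called. The remaining 5 tested members did not pass. These 2 calls among 9 tested members stood beside calls for 9.44% of all tested genes, of which 5.79% were higher. At an adjusted p below 0.05, 4 of 9 members passed, beside 29.2% of all genes. The median log2 difference was 0.07 over the 9 members and 0.014 over all genes.

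**Figure D2:**
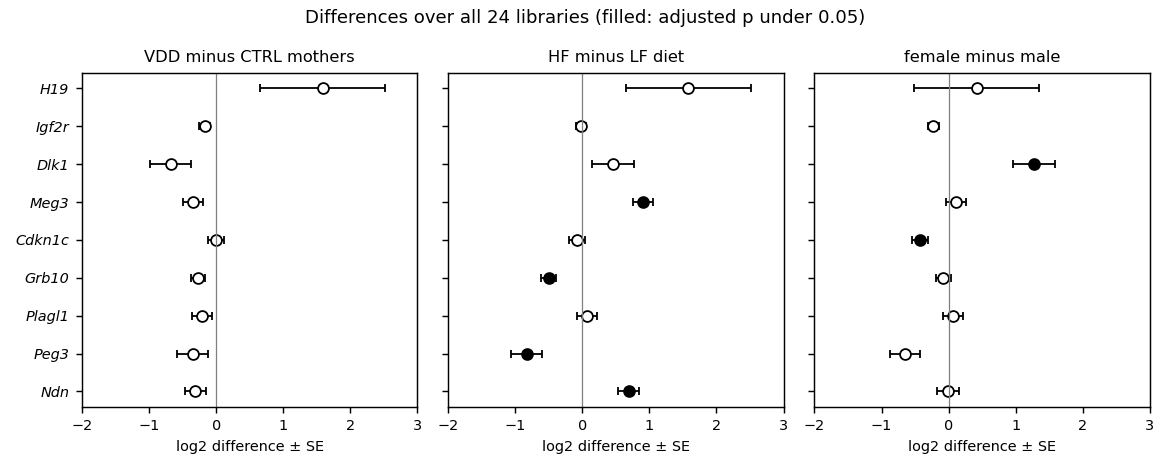
Log2 differences (with SE bars) of the 9 tested genes for maternal diet, offspring diet and sex over all 24 libraries, with filled points for adjusted p under 0.05. For offspring diet, Meg3 and Ndn lie to the right of 0 and Grb10 and Peg3 to the left; for maternal diet no point is filled.

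Meg3 is the long noncoding RNA transcribed from the maternal copy of the Dlk1-Meg3 cluster. In CTRL males it had 158, 197 and 233 scaled reads on LF and 326, 461 and 608 on HF. In VDD males it had 166, 168 and 237 on LF and 327, 562 and 588 on HF. The LF and HF values did not overlap in males of either mother. In CTRL females it had 220, 318 and 455 scaled reads on LF and 481, 520 and 624 on HF, again without overlap. In VDD females it had 185, 193 and 314 on LF and 221, 281 and 346 on HF, which overlapped. Over all libraries, 7 of 12 HF values exceeded every LF value, and 12 of 12 exceeded the LF median of 209. The fitted difference was +0.91 ± 0.15 (log2, SE; 1.88-fold), with a limma adjusted p of 0.000226, and it was called in every alternative tried and with each library left out.

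The upstream windows of the 4 members with an adjusted p below 0.05 are shown, so that their base composition can be read beside the result. Meg3 and Grb10 each have 2 windows in the RefSeq table, and the first is printed. Each holds the 250 bases before a RefSeq transcript start (GRCm38.p6, written 5′ to 3′ on the gene's strand) with CG dinucleotides in capitals. The windows are chr12:109540746-109540995 (plus) for Meg3, chr7:62348027-62348276 (plus) for Ndn, chr11:12037421-12037670 (minus) for Grb10 and chr7:6730420-6730669 (minus) for Peg3.

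Meg3: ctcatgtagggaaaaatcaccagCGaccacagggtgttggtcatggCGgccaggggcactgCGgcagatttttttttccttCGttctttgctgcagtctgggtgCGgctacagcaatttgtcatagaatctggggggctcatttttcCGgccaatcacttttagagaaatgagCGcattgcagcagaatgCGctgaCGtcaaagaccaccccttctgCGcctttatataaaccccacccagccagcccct
Ndn: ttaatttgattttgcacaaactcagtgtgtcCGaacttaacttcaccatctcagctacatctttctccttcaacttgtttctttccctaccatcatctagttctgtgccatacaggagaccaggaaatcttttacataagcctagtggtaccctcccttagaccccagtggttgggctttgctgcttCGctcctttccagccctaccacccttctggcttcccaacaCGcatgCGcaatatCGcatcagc
Grb10: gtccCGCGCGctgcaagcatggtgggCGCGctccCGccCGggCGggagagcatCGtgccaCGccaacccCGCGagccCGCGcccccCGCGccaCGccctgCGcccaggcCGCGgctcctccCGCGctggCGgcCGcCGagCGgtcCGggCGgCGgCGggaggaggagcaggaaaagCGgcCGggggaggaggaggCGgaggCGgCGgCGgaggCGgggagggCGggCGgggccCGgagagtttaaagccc
Peg3: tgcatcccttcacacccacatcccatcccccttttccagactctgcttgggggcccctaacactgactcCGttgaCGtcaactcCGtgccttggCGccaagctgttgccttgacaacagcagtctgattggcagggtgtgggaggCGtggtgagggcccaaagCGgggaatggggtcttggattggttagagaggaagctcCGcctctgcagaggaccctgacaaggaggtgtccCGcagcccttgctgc

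These windows differed widely in CG content: Grb10 had 40 CG dinucleotides, a number that 1.31% of 32851 RefSeq windows reached, whereas Meg3 had 10, Peg3 8 and Ndn 5, against a median of 6. In the second windows, Grb10 (chr11:12027972-12028221) had 8, which 43.0% of windows reached, and Meg3 (chr12:109545148-109545397) had 0. The RefSeq start used for Ndn lies 1708 bases, and that for Grb10 1263 bases, inside the GENCODE gene. The half-site AGGTCA, to which the vitamin D receptor and related nuclear receptors bind, was searched on both strands. It was in none of the 4 windows printed, but it was in the second window of Meg3 and in 1 window each of Igf2 and Igf2r. These were 3 of the 13 windows of the members, while 14.0% of all windows held it. The palindrome TGACGTCA, known as the cAMP response element, was chosen after the windows had been read. Of the 13 windows, the first of Meg3 and that of Peg3 held it, beside 1.55% of all windows. Among the members, 8 had a window in the table and H19 and Cdkn1c had none.

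Rian and Mirg, other noncoding RNAs of the same maternal chromosome 12 copy, were called on HF as well. Rian begins 32.2 kb and Mirg 158.0 kb beyond Meg3 on the same strand. On HF, Rian rose by 1.53 ± 0.23 (log2, SE; adjusted p = 0.000104) and Mirg by 1.71 ± 0.29 (adjusted p = 0.000356) by limma. Rian ranged from 28.2 to 195 scaled reads over LF libraries and from 64.7 to 529 over HF libraries. Mirg ranged from 3.52 to 21.6 on LF and from 6.86 to 59.9 on HF. Across the 24 libraries, Rian was also the gene whose log2 values were most like those of Meg3 among 10813 genes compared (Pearson r = 0.90 over 24 libraries), followed by Rcan3 and Adamts10 (both 0.88). The Rian reads were 0.168 to 0.847 of the Meg3 reads in a library. Dlk1, the protein-coding gene of the cluster and expressed from the other copy, had a difference of 0.46 ± 0.31 on HF (adjusted p = 0.286), at 1 to 20 reads per library.

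**Figure D3:**
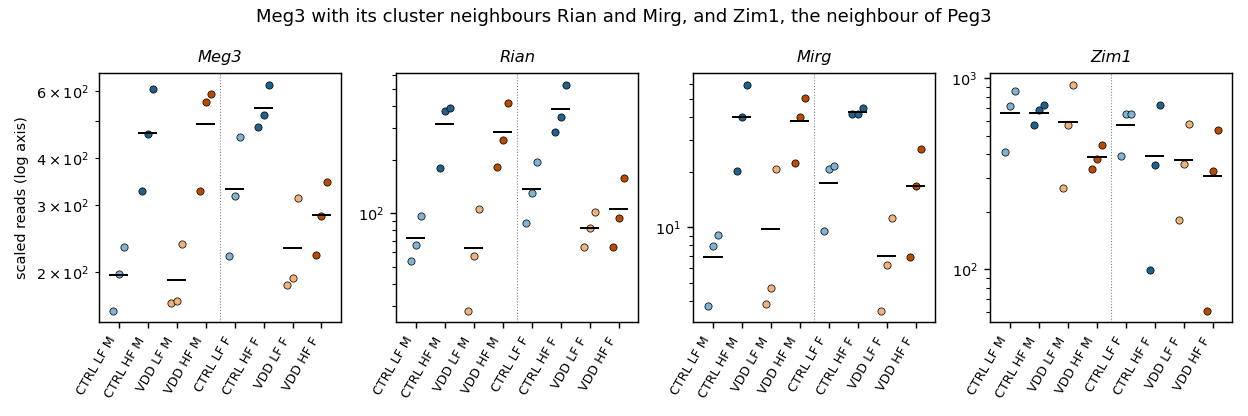
Scaled reads (log axis) of Meg3, Rian, Mirg and Zim1 by group, with 1 point per mouse and a bar for the mean of 3. Rian and Mirg repeat the pattern of Meg3, with VDD HF females below the other HF groups, and Zim1 repeats the low HF female libraries of Peg3.

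Ndn, the growth-restraining necdin, was the second member called. In CTRL males it had 212, 308 and 394 scaled reads on LF and 365, 428 and 452 on HF. In VDD males it had 109, 186 and 274 on LF and 379, 444 and 533 on HF. The VDD males did not overlap, whereas the CTRL males overlapped. In CTRL females it had 183, 273 and 354 on LF and 410, 468 and 519 on HF, without overlap. In VDD females it had 210, 250 and 367 on LF and 216, 258 and 432 on HF, which overlapped widely. The difference over 24 libraries was 0.69 ± 0.16 (log2, SE; 1.61-fold, limma adjusted p = 0.00356), and 8 of 12 HF values exceeded every LF value. Without the 6 libraries named renal it was 0.77 with an adjusted p of 0.0214, and without the 3 libraries high in adrenal cortex markers it was 0.66 with an adjusted p of 0.0171, so that the call was lost in both. The genes most like Ndn across the libraries were Tmco3 (r = 0.93), Tmem237 (0.90) and Med16 (0.89).

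Grb10, the brake on insulin receptor signalling, was lower on HF. In CTRL males it had 2567, 3183 and 3699 scaled reads on LF and 1750, 1875 and 1975 on HF. In VDD males it had 2014, 2430 and 2544 on LF and 1424, 1495 and 1982 on HF. Males of both mothers thus had HF values below all their LF values. In CTRL females it had 2397, 2705 and 2965 on LF and 1529, 1892 and 2070 on HF, also without overlap. In VDD females it had 1623, 2191 and 2262 on LF and 1209, 1847 and 2500 on HF, which overlapped. Over 24 libraries the difference of Grb10 was -0.50 ± 0.11 (log2, SE; fold 0.708, limma adjusted p = 0.002), a fold above the limit of 0.66. The adjusted p was 0.0559 when libraries were scaled by total reads and 0.0666 without the 9 libraries high in muscle markers. Insr, the insulin receptor itself, had -0.58 ± 0.08 (limma adjusted p = 3.51e-05) and also missed the fold limit.

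Peg3, the most abundant member per kilobase, was lower on HF as well. In CTRL males it had 8371, 11605 and 12455 scaled reads on LF and 6459, 7214 and 8928 on HF. In VDD males it had 7516, 9016 and 12176 on LF and 5010, 5520 and 6536 on HF. The CTRL males overlapped and the VDD males did not. In CTRL females it had 8472, 9969 and 11226 on LF and 1943, 3459 and 6633 on HF, without overlap. In VDD females it had 3077, 5765 and 9603 on LF and 1468, 5346 and 5979 on HF, which overlapped. All 12 HF values lay below the LF median of 9309 scaled reads. By limma the difference of Peg3 over 24 libraries was -0.83 ± 0.23 (log2, SE; fold 0.561, adjusted p = 0.0114), and it was called in 5 of the 24 fits that left out 1 library. The adjusted p was 0.0604 under scaling by total reads and 0.144 without the libraries named renal. Without the libraries high in muscle markers the difference was -0.91, and without those high in adrenal cortex markers it was -0.89. Both of these fits left some groups with 1 library.

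The lowest Peg3 value, 1468 scaled reads, came from a VDD HF female that also had the highest sum of brown adipocyte markers, 32348 scaled reads, and 19168 over the adrenal cortex markers. The library with the next lowest value, 1943 in a CTRL HF female, had 142 and 1128 for the same sums. Zim1, which lies 7.4 kb from Peg3 in the same cluster, was among the 3 genes most like it (r = 0.89 over 24 libraries, beside 0.89 for Dennd5b and 0.88 for Golgb1). Its lowest libraries were the same as those of Peg3, with 60.7 and 98.7 scaled reads. Usp29, whose start adjoins that of Peg3, had 0 to 12.9 scaled reads.

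The other members did not pass for offspring diet over 24 libraries. The log2 differences were -0.02 ± 0.08 for Igf2r, -0.08 ± 0.12 for Cdkn1c, 0.07 ± 0.15 for Plagl1 and 1.58 ± 0.93 for H19 (SE; limma adjusted p = 0.861, 0.666, 0.775 and 0.216). Scaling by total reads moved the median of all genes on HF from 0.01 to 0.18, and with it the sign of Igf2r and Cdkn1c, while the signs of Meg3, Ndn, Grb10 and Peg3 held. By total reads 1774 genes were called higher and 372 lower, against 1065 and 671 in the main scaling. Macrophage marker sums were 1580 to 6143 scaled reads on LF and 1970 to 10522 on HF, with 2 of 5 markers called higher, and stromal progenitor sums were 12800 to 54613 and 13764 to 46287, with 1 of 8 called higher. Brown adipocyte sums were 469 to 8628 on LF and 109 to 32348 on HF, with 1 of 6 markers called lower and a median log2 difference of -0.95, against 0.94 for the macrophage markers. Of 8 white adipocyte markers, 1 was called higher and 1 lower. The part of these markers in the results was not tested.

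**Figure D4:**
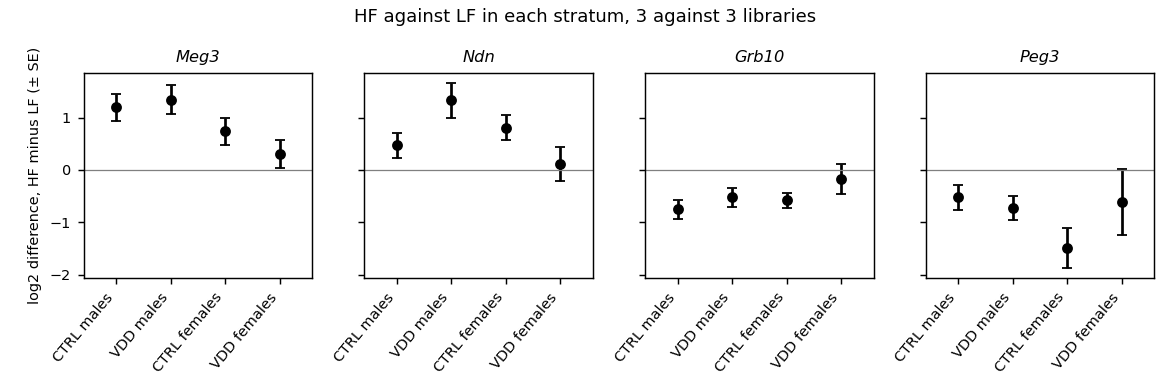
Log2 difference between HF and LF (SE bars, 3 against 3 mice) for 4 members in each combination of sex and mother. Every value has the sign of the pooled difference, and in VDD females Meg3 (0.31), Ndn (0.11) and Grb10 (-0.17) lie nearest to 0.

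Within each sex and maternal diet, 3 HF against 3 LF mice were compared on the deposited log2 values of that comparison. No member was called by limma or by limma-voom in any of these 4 comparisons. Limma called 0.0578% of genes in CTRL males, 0.0752% in VDD males and 0% in females of either mother. For each of these comparisons the paper listed differentially expressed genes by DESeq2. With 3 mice a group, the lack of limma calls cannot show that an HF effect is absent. At an unadjusted p below 0.05, 2 of 8 tested members passed in CTRL males (18.8% of all genes), 5 of 8 in VDD males (25.9%), 6 of 9 in CTRL females (28.8%) and 0 of 9 in VDD females (5.05%). The groups did not overlap for 2 of 8 members in CTRL males (24.7% of all genes), 5 of 8 in VDD males (33.4%), 5 of 9 in CTRL females (35.2%) and 0 of 9 in VDD females (11.6%). Meg3 came nearest to a call, with differences of 1.34 ± 0.28 in VDD males (limma adjusted p = 0.0495) and 1.20 ± 0.26 in CTRL males (adjusted p = 0.0622). It was 0.74 ± 0.26 in CTRL females (adjusted p = 0.112) and 0.31 ± 0.27 in VDD females (adjusted p = 0.863). In the same order, VDD males, CTRL males, CTRL females and VDD females, Ndn had 1.33, 0.47, 0.81 and 0.11, Grb10 -0.52, -0.75, -0.58 and -0.17, and Peg3 -0.73, -0.52, -1.49 and -0.62.

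The second comparison asked whether the mother's vitamin D deficiency left a difference in these genes. Over 12 VDD and 12 CTRL libraries, no member was called, and 0.103% of 18399 genes were. At an unadjusted p below 0.05, 3 of 9 members passed, all lower in VDD offspring, beside 22.9% of all genes (11.1% lower), and limma-voom called none. Grb10 had -0.27 ± 0.11 (limma adjusted p = 0.14), Meg3 -0.35 ± 0.15 (limma adjusted p = 0.16) and Dlk1 -0.68 ± 0.31 (limma adjusted p = 0.19). Igf2r (-0.17 ± 0.08), Ndn (-0.31 ± 0.16), Plagl1 (-0.21 ± 0.15) and Peg3 (-0.35 ± 0.23) had negative values too, Cdkn1c had -0.00 ± 0.12 and H19 1.59 ± 0.93. The median over the 9 members was -0.27 and over all genes -0.005. Scaling by total reads moved the median of all genes to -0.13 and changed the called genes from 14 higher and 5 lower to 16 higher and 34 lower.

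The 4 separate comparisons of VDD with CTRL offspring had no called member either, and limma called 0% of genes in each. The paper, which used DESeq2 with similar limits, listed differentially expressed genes for each of these comparisons. With 3 mice a group, the lack of limma calls cannot show that a maternal effect is absent. At an unadjusted p below 0.05, 0 of 8 members passed in LF males (6.79% of all genes), 2 of 9 in LF females (12%), 1 of 8 in HF males (5.31%) and 3 of 9 in HF females (16.7%), and limma-voom called no member. The groups did not overlap for 1 member in LF males (13.4% of all genes), 2 in LF females (18.2%), 2 in HF males (10.3%) and 1 in HF females (22.9%). In HF females, Meg3 had 221 to 346 scaled reads in VDD and 481 to 624 in CTRL offspring, without overlap (-0.94 ± 0.20, limma adjusted p = 0.146). Marker sums stood apart between the same VDD and CTRL libraries: 13764 to 32327 against 38071 to 46287 scaled reads for stromal progenitors, 3179 to 6387 against 7648 to 14754 for mesothelium, 18.6 to 136 against 531 to 773 for kidney, and 1845 to 32348 against 109 to 607 for brown adipocytes. Their part in the Meg3 difference was not tested. Also in HF females, Plagl1 had -0.88 ± 0.34 (limma adjusted p = 0.261) and Ndn -0.67 ± 0.27 (limma adjusted p = 0.286), with overlapping values. In LF females, Igf2r had 1227, 1314 and 1382 scaled reads in VDD and 1631, 1641 and 1908 in CTRL offspring (-0.40 ± 0.12, limma adjusted p = 0.391). Grb10 did not overlap in LF females (-0.42 ± 0.16, limma adjusted p = 0.404) or LF males (-0.42 ± 0.19, limma adjusted p = 0.74), and it had -0.22 ± 0.16 in HF males and -0.02 ± 0.27 in HF females. In HF males, Peg3 had 5010 to 6536 scaled reads in VDD and 6459 to 8928 in CTRL offspring, and on the scale of that comparison the groups did not overlap (-0.42 ± 0.19, limma adjusted p = 0.94).

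H19, the maternally expressed RNA beside Igf2, was the most variable member. In CTRL males it had 3.74, 12.7 and 144 scaled reads on LF and 43.5, 56.0 and 86.7 on HF. In VDD males it had 1.28, 128 and 2134 on LF and 340, 704 and 722 on HF. The HF males of the 2 maternal groups did not overlap, and the difference was 3.19 ± 0.36 (log2, SE; unadjusted p = 2.96e-05, limma adjusted p = 0.237). In CTRL females it had 26.9, 48.9 and 281 on LF and 42.2, 126 and 394 on HF. In VDD females it had 23.2, 29.3 and 1060 on LF and 63.0, 177 and 1008 on HF. Without the VDD HF male with 340 H19 reads, the difference in HF males was 3.55, and H19 was called (limma adjusted p = 0.000996).

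**Figure D5:**
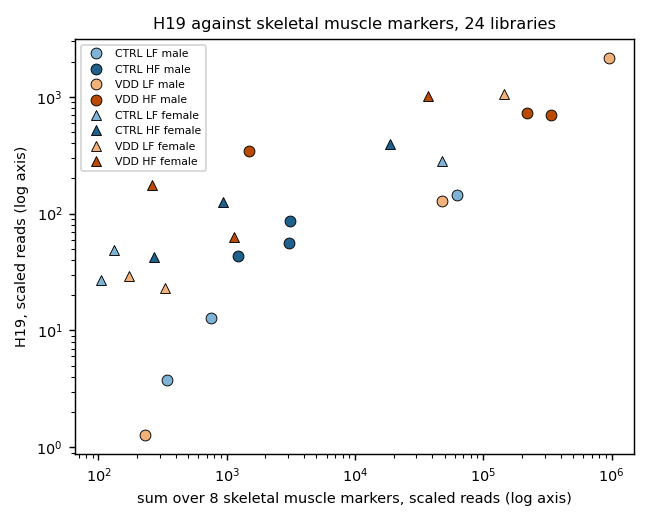
H19 against the sum over 8 skeletal muscle markers, both in scaled reads on log axes, with 1 point per library, circles for males and triangles for females. The 9 libraries over 10000 marker reads had 128 to 2134 H19 reads and the other 15 had 1.28 to 340.

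Skeletal muscle markers moved with H19. In the HF males, the marker sums were 1225, 3031 and 3119 scaled reads in CTRL and 1501, 218613 and 336667 in VDD offspring. The VDD male with 1501 was the one with 340 H19 reads, against 43.5 to 86.7 in CTRL HF males. The call without that mouse thus set only muscle-high VDD libraries against CTRL libraries low in these markers. Over all libraries, the 9 with more than 10000 marker reads had a median of 704 H19 reads, and the other 15 a median of 43.5. The 3 genes most like H19 across the 24 libraries were Klhl33 (r = 0.88), Trdn (0.87) and Jsrp1 (0.87), of which Trdn and Jsrp1 encode proteins of the muscle calcium release complex. As deviations from group means over the 24 libraries, H19 and the marker sum had a Pearson's r of 0.90 (permutation p = 0.0001, adjusted p = 0.0117) and a Spearman's rho of 0.89 (permutation p = 0.00015, adjusted p = 0.0175), and r was 0.89 without the 2 libraries farthest out. It was the 1 relation of 117 between members and marker sums to pass after adjustment. Because 9 libraries stood above the rest on this sum, the values themselves were also tested within each side of 10000 reads, with 2 relations in the family. Libraries of a side were permuted without regard to group, so differences between groups were not removed. With few libraries and a narrower range on each side, these tests cannot decide the relation. Among the 15 libraries below the limit, Pearson's r was 0.40 (permutation p = 0.14, adjusted 0.14) and Spearman's rho 0.46 (permutation p = 0.0836, adjusted 0.167). Among the 9 above it, r was 0.63 (exact permutation p = 0.0699, adjusted 0.14) and rho 0.45 (exact permutation p = 0.23, adjusted 0.23), and r was 0.38 and 0.34 without the 2 libraries farthest out. Without the 9 libraries, an alternative chosen after seeing the data, the maternal difference of H19 was 0.18, against 1.59 with them. The HF difference was 3.28, against 1.58. That fit kept only 1 VDD LF male, with 1.28 H19 reads, and 1 VDD HF male, with 340, so it cannot decide either difference. Igf2, which shares the enhancers of H19, ranged only from 0.958 to 14.0 scaled reads, with its highest value in the same library as that of H19, a VDD LF male.

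The third comparison set females against males. Dlk1 was the 1 member called of 9, beside 7.27% of all genes, and at an adjusted p below 0.05 Cdkn1c passed too, 2 of 9 members beside 19.8% of all genes. Dlk1, the inhibitor of adipocyte formation, had 0.991 to 10.1 scaled reads with a median of 2.68 in males and 2.38 to 19.2 with a median of 9.77 in females, and 6 of 12 females exceeded every male. The filter on low reads asked for 10 scaled reads in at least 3 of the 24 libraries. The highest male values were 5.63 (CTRL LF), 10.1 (CTRL HF), 1.28 (VDD LF) and 2.81 (VDD HF). Dlk1 thus entered this test only through female libraries, so the filter favoured a higher female value. The difference was 1.27 ± 0.31 (log2, SE; limma adjusted p = 0.00656) on log2(scaled reads + 1). It was called in 12 of the 24 fits that left out 1 library, with differences of 1.16 to 1.46 and adjusted p-values of 0.000853 to 0.0152. The call was also lost in 6 of the alternatives, among them limma-voom (adjusted p = 0.0112), no filter on low reads (adjusted p = 0.0131) and the removal of the libraries high in muscle (adjusted p = 0.0504) or adrenal cortex markers (adjusted p = 0.0264). Adrenal cortex marker sums were 392 to 749 scaled reads in males and 444 to 33095 in females, and their part in the difference was not tested.

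Cdkn1c, the inhibitor of cyclin-dependent kinases, had 597 to 1224 scaled reads in males and 368 to 730 in females, and 7 of 12 females lay below every male. The difference was -0.43 ± 0.12 (log2, SE; fold 0.744, limma adjusted p = 0.0188), short of the fold limit. With 1 library left out, its limma adjusted p was 0.00716 to 0.039. Over the alternatives the difference was -0.46 to -0.37, and its adjusted p did not stay below 0.05 in all of them. Peg3 had -0.65 ± 0.23 (limma adjusted p = 0.0564) and Igf2r -0.23 ± 0.08 (limma adjusted p = 0.0573). Meg3 (0.11 ± 0.15), Plagl1 (0.07 ± 0.15), Grb10 (-0.08 ± 0.11), Ndn (-0.01 ± 0.16) and H19 (0.42 ± 0.93) had limma adjusted p-values of 0.629 to 0.966.

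Whether an effect differed between groups was tested by interactions over the 24 libraries. None of the 9 tested members passed an adjusted p of 0.05 in any of the 4 interactions, nor was any called by limma-voom. At an unadjusted p below 0.05, the HF effect by sex had 2 of 9 members (8.92% of all genes), which were Igf2r (-0.44 ± 0.16, limma adjusted p = 0.443) and Meg3 (-0.74 ± 0.30, limma adjusted p = 0.46), both lower for females. The maternal effect by sex had 2 of 9 (6.63%), which were Meg3 (-0.75 ± 0.30, limma adjusted p = 0.739) and Cdkn1c (0.61 ± 0.24, limma adjusted p = 0.739). The maternal effect by offspring diet had 1 of 9 in females (6.36%), Plagl1 (-1.06 ± 0.43, limma adjusted p = 0.749), and 0 of 9 in males (4.1%).

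The wider imprinted set, a list also chosen with earlier results of these data known, gave context for these values. Of 58 further imprinted genes, 46 were tested over 24 libraries, and 7 were called on HF, all higher, beside 9.44% of all genes called and 5.79% called higher. These were Mest, a marker of fat expansion (2.55 ± 0.35, limma adjusted p = 5.24e-05), Peg10 (1.43 ± 0.17), the neuronatin gene Nnat (1.68 ± 0.25), the adipocyte factor Klf14 (2.18 ± 0.38), Atp10a (0.71 ± 0.19), Rian and Mirg. The median over the 46 was 0.17 and over all genes 0.014. For maternal diet none of the 46 was called by limma, 20 of 46 had an unadjusted p below 0.05 (22.9% of all genes), and 4 had an adjusted p below 0.05 (4.59% of all genes, 2.05% lower), all lower in VDD offspring over the 24 libraries: Peg10 (-0.97 ± 0.17, limma adjusted p = 0.0104), Mest (-1.76 ± 0.35, limma adjusted p = 0.0133), Phactr2 (-0.31 ± 0.07) and Peg13 (-0.26 ± 0.06). In HF males alone, Mest had a VDD minus CTRL difference of 0.46 and Peg10 of -0.03 (limma adjusted p = 0.985 and 0.999). In LF males these were -3.62 and -1.63 (limma adjusted p = 0.6 for both). In the interaction of maternal and offspring diet in males, 0 of 18399 genes passed a limma adjusted p of 0.05. These values therefore do not establish that the maternal difference depended on the offspring diet. Females were lower than males for Mest, Nnat, Klf14, Slc22a3 and Qpct and higher for Rasgrf1, the 6 of 46 genes called, beside 7.27% of all genes (2.68% lower and 4.59% higher).

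Of 22 genes of the insulin-like growth factor axis beside Igf2 and Igf2r, 18 were tested, and none was called on HF by limma, where 9 of 18 had an unadjusted p below 0.05, beside 39.7% of all genes. At an adjusted p below 0.05, 6 of 18 passed, near the 29.2% of all genes. Of these 6 genes, 5 were higher (15% of all genes) and Insr was lower. Among the 5, Igfbp5, a secreted binding protein of the axis, had 1.12 ± 0.32 (limma adjusted p = 0.0121). Igf1, a growth factor of the family that was named after its values were seen, ranged from 1947 to 6237 scaled reads, with -0.15 ± 0.14 on HF (limma adjusted p = 0.467) and -0.36 ± 0.14 in VDD offspring (limma adjusted p = 0.141). Between the sexes 3 of 18 were called, beside 7.27% of all genes: Igfbp2 (4.18 ± 0.80) and Igfbp7 (0.68 ± 0.10) were higher and Irs2 (-0.78 ± 0.18) was lower in females. Igfbp2 ranged from 0 to 777 scaled reads over the 24 libraries.

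Over 36 pairs of tested members, correlated as deviations from group means across 24 libraries, no pair passed a permutation p of 0.05 after adjustment, while H19 passed with the muscle marker sum, as given above. The other genes most like a member in log2 values across the libraries were Appl2 for Grb10 (r = 0.87), Rbms1 for Igf2r (0.82), Tbx2 for Dlk1 (0.81), Neu1 for Cdkn1c (0.80) and Sh3bgrl for Plagl1 (0.80), each as a description over 24 libraries that share groups.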

How the data were processed

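RNA from retroperitoneal white adipose tissue of 24 mice was extracted with TRIzol and sequenced as stranded mRNA libraries, paired-end, on a NextSeq 500. According to their methods and processing notes, the authors trimmed reads with Sickle, aligned unique reads to mm10 with STAR 2.7.0d, assembled transcripts with Cufflinks 2.2.1, counted with featureCounts 1.6.1 and normalized with DESeq2. The deposited values are log2 of normalized reads plus 1, in 8 tables of 6 libraries. Columns of the authors' own DESeq2 comparisons (means, fold changes, standard errors, p-values) were not used.

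Of 56899 entries per table, 4 with duplicated names were left out. Whole reads were recovered from 100% of values (tolerance 0.02, largest distance 0.0057), and libraries had 13346779 to 18484346 reads on genes (median 15933506), so that genes with few reads carry counting error. Each table was tested with limma 3.58.1 (R 4.3.3) on the deposited values after genes were dropped that reached 10 normalized reads in fewer than 3 libraries. Over 24 libraries, the recovered reads were brought to 1 scale with median-of-ratios size factors from 17314 genes, and log2(scaled reads + 1) was fitted to 8 group means. Fold changes of low genes are therefore understated. A gene was called at a Benjamini-Hochberg adjusted p below 0.01 and a fold above 1.5 or below 0.66. Permutation tests drew 100000 resamples with 10 or more values and were exact otherwise, all two-sided. Fits were also run on simulated counts with known changes, whose outcome is not given here and lends no support to the comparisons without calls.

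Groups came from the labels. Alternatives were limma-voom, other scalings, a pseudocount of 10, no filter, an adjusted p of 0.05, and leaving out libraries. The rule for named genes was all 10 members, the 3 genes most like each, and the called genes of each list. The members and lists were chosen with earlier results of these data known. Positions are from GENCODE M21 (98.8% of entries matched), and upstream windows from RefSeq.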

Additional observations from a re-analysis of the deposited data

How the results depend on the processing

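No paired analysis was possible because the columns carry mouse numbers and not the replicate numbers of the labels. With 3 mice a group and at most 20 reads per library for Dlk1 and 12 for Igf2, small differences were not detectable. Leaving out the libraries high in muscle or adrenal cortex markers was chosen after seeing the data. The first left 1 VDD LF male and 1 VDD HF male, and the second left 1 CTRL HF female. Calls and adjusted p-values of these fits therefore decide little. At an adjusted p below 0.05 with no fold limit, 1 member (Meg3) passed for HF in VDD males, 4 for HF over 24 libraries and 2 for sex. Without the libraries named renal, 1 member (Meg3) was called for HF. For sex, 0 members were called by limma-voom, with a pseudocount of 10, with no filter, and without the renal, muscle-high or adrenal-high libraries. The maternal difference of Cdkn1c was 0.03 without the renal and 0.07 without the adrenal-high libraries, and that of Peg3 0.03 without the latter. For HF, Cdkn1c had 0.09 and Igf2r 0.14 under total-read scaling, and Igf2r 0.01 without the muscle-high libraries. For sex, Ndn had 0.02 by total reads, 0.04 by upper quartile and 0.09 without the muscle-high libraries. The causes were not tested.

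With 1 library left out, 0 to 1 members were called for maternal diet in HF males (1, H19, without the VDD HF male with 340 H19 reads), 2 to 3 for HF over 24 libraries and 0 to 1 for sex. Peg3 joined Meg3 and Ndn without the VDD LF male with 7516 Peg3 reads, the CTRL HF female with 6633, the VDD LF female with 3077 or the VDD HF females with 5979 or 5346. Dlk1 was lost without the CTRL LF male with 2.49 scaled Dlk1 reads, the CTRL HF male with 3.62, the VDD LF male with 0.991 or any VDD HF male (1.73 to 2.81), or without the CTRL LF females with 10.4 or 14.9, the CTRL HF female with 19.2, the VDD LF female with 12.9 or the VDD HF females with 15.4 or 15.7. Maternal differences ranged from -0.20 to 0.10 (Meg3, LF males), -0.16 to 0.33 (Meg3, HF males), -0.27 to 0.25 (Grb10, HF females) and -0.07 to 0.06 (Cdkn1c, 24 libraries). HF differences in VDD females ranged from -0.43 to 0.11 for Grb10, -0.17 to 0.34 for Ndn and -1.04 to 0.04 for Peg3, and over 24 libraries from -0.08 to 0.01 for Igf2r and -0.02 to 0.16 for Plagl1. Sex differences ranged from -0.23 to 1.00 for H19, -0.10 to 0.06 for Ndn and -0.03 to 0.15 for Plagl1. Of all other values, 482 under the other settings and 895 with a library left out kept their direction and their side of the threshold, or stayed within 1.5 times the count.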
